A study of Mus musculus with 16 samples.

Results

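The genes described here are 10 co-stimulatory and checkpoint molecules of myeloid cells: Cd80, Cd86, Cd40, Cd274, Pdcd1lg2, Havcr2, Lgals9, Lgals3, Sirpa and Lilrb4a. They are a list of gene names, drawn up with earlier results of these data in view, of ligands and receptors through which myeloid cells and T cells or other cells regulate each other, and are 10 of the 24421 genes with deposited counts. All 10 passed the filter on low counts and were among the 9642 genes tested. The counts came from bulk RNA-seq of 16 libraries of CD11b+ cells, sorted as live CD45+ and Kaede+ cells without TER119 or NK1.1, from subcutaneous MC38-Ova tumours of female Kaede transgenic mice (genotype given as C57BL/6, treatment as control, 8 to 14 weeks old). Tumours were photoconverted on day 13, which turns the Kaede protein of the cells then in the tumour from green to red, and were collected on day 14 (24h) or day 16 (72h). Kaede-green cells therefore entered the tumour after photoconversion, and Kaede-red cells were present at photoconversion and stayed. Each of the 4 groups, Kaede-green 24h, Kaede-red 24h, Kaede-green 72h and Kaede-red 72h, had 4 libraries, all under the batch label Jan_2021. The labels do not name an animal for each library, while the paper's figure legend for this bulk data takes each point as the tumour of an independent mouse. The p-values measure the spread between these libraries, and no pairing of green with red libraries by number is stated.

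A T cell that meets its antigen is also steered by ligands on the presenting myeloid cell. CD80 and CD86 engage CD28 for co-stimulation or CTLA-4 for restraint, CD40 receives CD40 ligand from helper T cells, and PD-L1 (Cd274) and PD-L2 (Pdcd1lg2) engage the inhibitory receptor PD-1. Myeloid cells also carry inhibitory receptors of their own, among them TIM-3 (Havcr2), for which galectin-9 (Lgals9) is a ligand, SIRPα (Sirpa), which binds CD47 and restrains phagocytosis, and Lilrb4a, the mouse counterpart of ILT3.

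The depth behind these values differed between the colours. Outside the ribosomal gene Rn45s and the genes Lars2 and Mir6236, which collect ribosomal RNA reads, a Kaede-green library had 247829 to 549987 counts and a Kaede-red library 618803 to 5305788, of totals from 3216858 to 15423085. The Kaede-red libraries had more of these counts at both times, a log2 difference of 2.14 (exact permutation within times, two-sided, p = 0.000408, the smallest that 4900 relabellings can give). Levels are therefore given as CPM, counts scaled by the TMM-adjusted size of each library, and 1 count was worth 0.557 CPM in the shallowest Kaede-green library but 0.0210 CPM in the deepest Kaede-red one. Kaede-red 72h replicate 3, with 779961 such counts, was shallower than the other libraries of its group.

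The sort label was checked against markers. All 10 monocyte and macrophage markers had counts in every library, with a summed level of 1861 CPM on average in Kaede-green 24h, 1055 in Kaede-red 24h, 1440 in Kaede-green 72h and 1565 in Kaede-red 72h, and Lyz2 as the most abundant. Dendritic cell markers (8 genes, Fscn1 the most abundant) summed to group means of 8.15 to 12.2 CPM, and of those not tested Flt3 had at most 34 counts in a library, Zbtb46 27, and Xcr1, Clec9a and Siglech 8. Neutrophil markers (6 genes, of which Ly6g was not matched) had mean sums of 7.78 to 17.2 CPM, most of it Csf3r, and Retnlg was at 0 in 14 of the 16 libraries. Group means were at most 2.90 CPM for the sum of T and NK cell markers (7 genes, up to 5.71 in a single library), 1.17 for B cell markers (4 genes, up to 2.45), 0.816 for tumour epithelial markers (4 genes, up to 2.86) and 3.45 for erythroid markers (2 genes, up to 5.79). Fibroblast markers (5 genes, Col3a1 the most abundant) had mean sums of 45.2, 27.2, 46.2 and 15.6 CPM in the same group order, and endothelial markers (3 genes, Kdr the most abundant) to 13.6, 21.0, 14.1 and 30.9.

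Sirpa was the member that differed most between the colours, higher in Kaede-red cells at both times, and 2 further members, Lgals9 and Havcr2, were higher in Kaede-red cells at 72h than at 24h. Cd40 was lower in Kaede-red than in Kaede-green cells at 72h. The other members, among them the CD28 and PD-1 ligands, were not called in any of the 6 comparisons at an adjusted p under 0.05. The plot of every member by library shows these levels side by side.

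**Figure D1:**
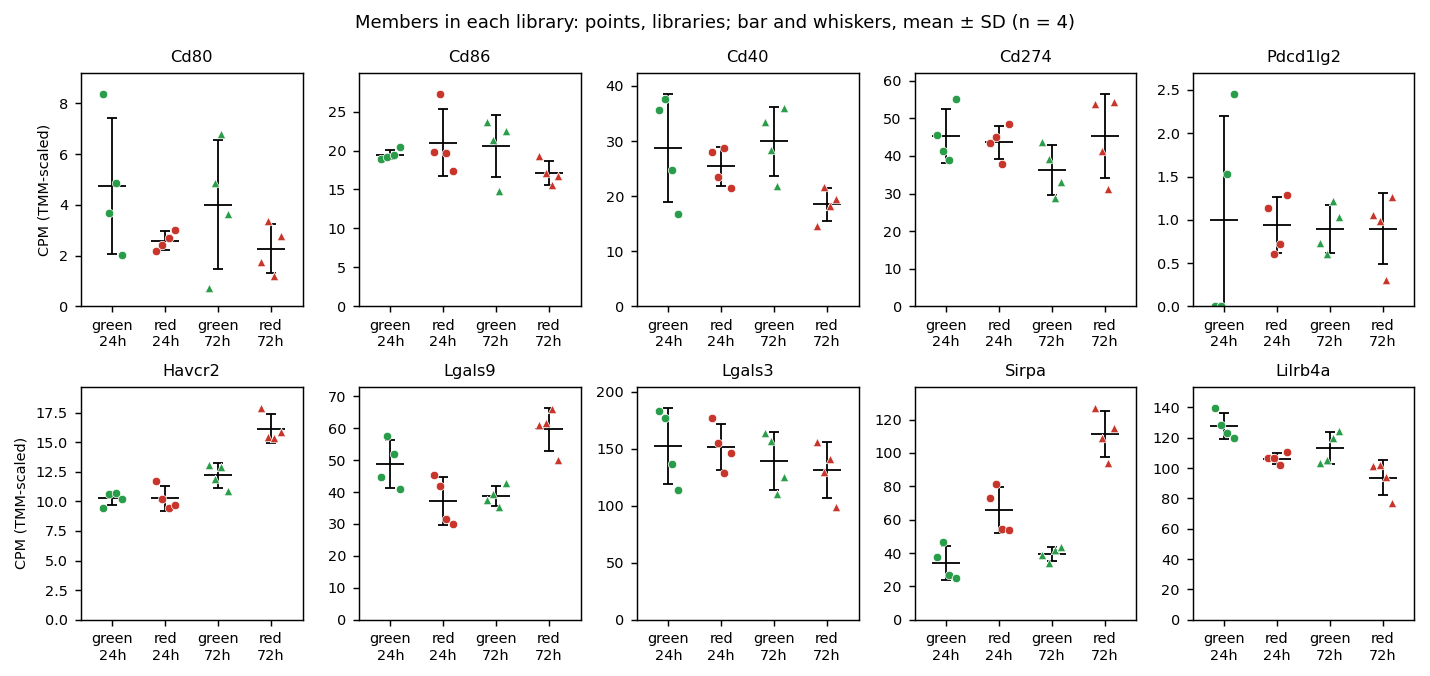
Level of each of the 10 members in CPM (vertical axis, from 0) in each library of the 4 groups, with circles for 24h, triangles for 72h, green for Kaede-green, red for Kaede-red, and bars with whiskers for the mean ± SD of 4 libraries. Sirpa is higher in all Kaede-red libraries (53.9 to 127 CPM) than in all Kaede-green libraries (24.9 to 46.6 CPM), while Cd274, Cd86 and Lgals3 overlap between the colours at both times.

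Calls rest on the quasi-likelihood test of edgeR, with p-values adjusted by the Benjamini-Hochberg method over the 9642 genes. Between the colours with both times combined, 1 of 10 members was called, Sirpa, higher in Kaede-red, where 20.2% of all genes were called (9.96% higher and 10.3% lower). At 24h it was again 1 of 10, Sirpa, higher, against 7.51% of all genes (3.2% higher and 4.3% lower). At 72h, 3 of 10 were called, Sirpa and Lgals9 higher and Cd40 lower, against 16.8% of all genes (8.07% higher and 8.76% lower). Between 24h and 72h in Kaede-red cells, 3 of 10 were called, Sirpa, Lgals9 and Havcr2, all higher at 72h, against 8.67% of all genes (4.91% higher and 3.76% lower). In Kaede-green cells edgeR called 0 of 10 members and 0% of all genes between the times, with 0 members under an unadjusted p of 0.05 and 0 members called by DESeq2. When the red-green difference of 72h was set against that of 24h, edgeR called 0 of 10 members, against 0.767% of all genes (0.436% higher and 0.332% lower), with 1 member, Lgals9, under an unadjusted p of 0.05 and the same 1 called by DESeq2. That share is 74 genes and depends on single libraries: all genes called were 2 to 40 without Kaede-green 24h replicate 2 or 3, Kaede-red 24h replicate 3 or 4, Kaede-green 72h replicate 2 or 3, or any Kaede-red 72h library. Leaving out replicate 4 of Kaede-green 24h gave 127 and replicate 1 of Kaede-red 24h gave 155. Over time in Kaede-red, all genes called went from 836 to between 287 and 536 without Kaede-red 24h replicate 3 or 4 or Kaede-red 72h replicate 1, 2 or 4.

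The median log2 fold change of the 10 members between the colours was -0.04 with the times combined (0.06 over all genes), -0.10 at 24h (0.05) and -0.01 at 72h (0.03). Between the times it was -0.14 in Kaede-green cells (0.03 over all genes) and -0.07 in Kaede-red cells (-0.01). The difference between the differences had a median of 0.13 (-0.07 over all genes). By ranges, 1 member, Sirpa, was higher in all Kaede-red libraries of both times, where 2.94% of all genes were without overlap (1.19% higher and 1.74% lower). At 24h 2 members did not overlap, Sirpa higher and Lilrb4a lower, against 12.5% of all genes (7.07% higher and 5.44% lower). At 72h it was 5 members, Sirpa, Lgals9 and Havcr2 higher and Cd40 and Lilrb4a lower, against 22.5% (13% higher and 9.52% lower). Between the times, Havcr2 was the 1 member without overlap in Kaede-green cells, against 2.99% of all genes (1.9% higher and 1.09% lower). For Kaede-red cells these were 3 members, Sirpa, Lgals9 and Havcr2, against 20.6% (11.8% higher and 8.76% lower). Of the genes tested, 4050 passed the filter through Kaede-red libraries alone, so a call of such a gene as higher in Kaede-red is not independent of the filter. Either colour alone would have kept 5465 genes, among them 9 members, all but Pdcd1lg2. Of these 9, 1 was called over both times (27.9% of the 5465 genes) and 1 at 24h (10.6%). At 72h 2 were called higher and 1 lower (25.2%), and over time in Kaede-red cells 3 were called higher (14.2%). The counts of called genes in the lists below are over these 5465 genes. They and the lists, which were drawn up with earlier results known, describe and are not tests. The comparisons at 24h and 72h share no library, but each shares its libraries with the comparisons over time.

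**Figure D2:**
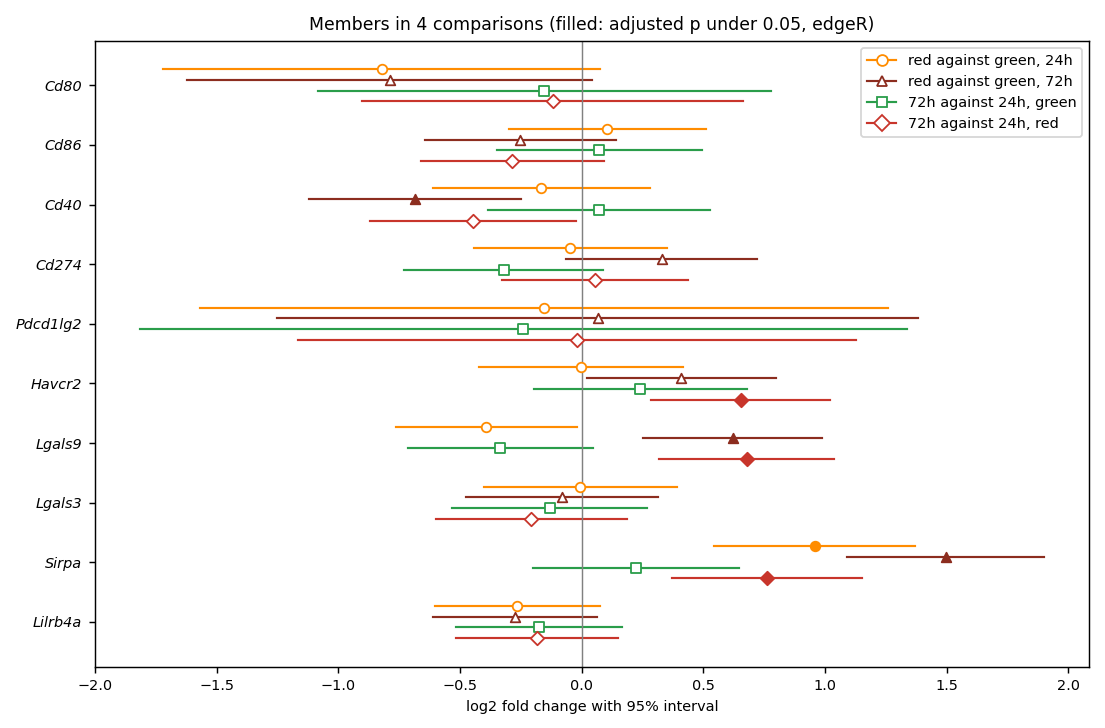
Log2 fold change (horizontal axis) of each member with its 95% interval in 4 comparisons, Kaede-red against Kaede-green at 24h and at 72h and 72h against 24h in each colour, with filled symbols for an adjusted p under 0.05 in edgeR. Sirpa is called in 3 of them (0.96, 1.50 and 0.76), and the intervals of Pdcd1lg2 and Cd80 are the widest.

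2 limits go with these calls. For the calls between the colours, scaling by the library size without Rn45s, Lars2 and Mir6236 moved the median of all genes by 0.18 for the times combined and by 0.19 for 24h and 0.19 for 72h alone, and the share of calls that were higher in Kaede-red from 49.2 to 74.4%, 42.7 to 73.4% and 47.9 to 67.8%, while over time in Kaede-red that median moved by -0.027 and the share higher went from 56.6 to 48.0%. The Rn45s share was 79.0 to 93.4% of counts in Kaede-green and 55.8 to 84.9% in Kaede-red libraries, without overlap within either time. For the calls between the colours it therefore cannot be told apart from the colour. With it as a covariate, 0 of the 8 calls of members were kept by edgeR, although all 8 had the same direction. Of these calls, 3 are between the times within Kaede-red cells, where the colour is the same. The fold change of Cd40 at 72h was larger with the covariate, and those of the other member calls were smaller, with the values given below.

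Of the co-stimulatory molecules, Cd40, the TNF receptor family member through which helper T cells license presenting cells, lies on chr2:165055627-165072948 of mm10. At 24h it had 35.7, 37.6, 24.8 and 16.7 CPM in Kaede-green and 27.9, 23.6, 28.8 and 21.4 CPM in Kaede-red libraries. At 72h it had 33.5, 28.3, 21.9 and 36.0 CPM in Kaede-green and 14.6, 21.7, 18.3 and 19.6 CPM in Kaede-red libraries. The colours overlapped at 24h, whereas at 72h all Kaede-red libraries lay under all Kaede-green ones, the nearest pair being 21.7 and 21.9 CPM. The log2 fold change at 72h was -0.69 (SE 0.22, adjusted p = 0.0299), that is 1.61-fold lower in Kaede-red. Markers of cell types differed in the same comparison. Of the 10 monocyte and macrophage markers 7 were called higher, among them C1qa (2.18) and Mrc1 (1.73), against 25.2% of all genes that either colour alone would have kept. Of the 3 endothelial markers, Kdr (1.34) and Pecam1 (1.36) were called higher, while Cdh5 was not called and its value was not higher in Kaede-red. Csf3r (1.12) was also called higher, and Col1a1 (-1.56), Col1a2 (-1.70) and Col3a1 (-1.63) lower. The part of these cells in the values of Cd40 and Lgals9 at 72h was not tested. In bulk libraries such as these, fewer cells that express a gene and less RNA per cell cannot be told apart. Over both times the value was -0.43 (SE 0.16, adjusted p = 0.0552), and the change of the difference between the times was -0.52 (adjusted p = 0.449), so a larger difference at 72h than at 24h was not shown.

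The call of Cd40 at 72h depended on single libraries and on the processing. It ended without Kaede-green 72h replicate 1 or 4 or without Kaede-red 72h replicate 1, 3 or 4 (log2 fold change -0.71 to -0.56, adjusted p from 0.0504 to 0.121), and with no low-count filter or with the rRNA-free library size (-0.54 and -0.51). It was kept by DESeq2 (-0.72) and with RLE factors (-0.73), and was largest with thinned libraries (-1.12, adjusted p = 0.000888, with 0.000888 to 0.165 among all alternatives). Relative to the shift of the median gene under that scaling, Cd40 was at -0.69. Over both times Cd40 was called without Kaede-green 24h replicate 3 or 4 or Kaede-green 72h replicate 3 (-0.53 to -0.48, adjusted p from 0.00960 to 0.0479), by DESeq2 and with RLE factors (-0.45 in both), and with thinned libraries (-0.63). Thinning also gave a call between the times in Kaede-red cells (-0.85).

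Cd80, a ligand of CD28 and CTLA-4, was near the limit of what these libraries can measure, with 2 to 28 counts in Kaede-green and 8 to 134 in Kaede-red libraries. Its group means were 4.73 ± 2.68 CPM in Kaede-green 24h, 2.59 ± 0.363 in Kaede-red 24h, 4.01 ± 2.55 in Kaede-green 72h and 2.28 ± 0.976 in Kaede-red 72h (SD, n = 4). The Kaede-green libraries ranged widely, from 0.729 to 8.36 CPM, and enclosed all Kaede-red libraries. The log2 fold change over both times was -0.81 (95% interval -1.42 to -0.19, adjusted p = 0.0656), below the threshold only without Kaede-green 24h replicate 4 or Kaede-green 72h replicate 1 (-0.96 to -0.94, adjusted p from 0.0161 to 0.0256).

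Cd86, the other ligand of CD28 and CTLA-4, was detected in every library at 14.8 to 27.2 CPM. Group means were 19.5 ± 0.638, 21.0 ± 4.28, 20.6 ± 3.97 and 17.2 ± 1.54 CPM (SD, n = 4, in the order Kaede-green 24h, Kaede-red 24h, Kaede-green 72h, Kaede-red 72h). Colours and times overlapped, and the red-green difference over both times was -0.07 on the log2 scale with a 95% interval from -0.36 to 0.21.

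Genes downstream of CD40 were listed as 9 signalling genes, the TRAF adaptors Traf1, Traf2, Traf3, Traf5 and Traf6 with Birc3, Map3k14, Relb and Nfkb2. All 9 were tested, but Traf2, Traf5 and Relb passed the filter through Kaede-red libraries alone. EdgeR called 0 of the other 6 in any comparison. Of all genes that either colour alone would have kept, 10.6% were called at 24h, 25.2% at 72h and 27.9% with the times combined. Over time in Kaede-red cells this share was 14.2%, and for the change of the difference 1.26%. The median red-green difference of the 6 was -0.24 at 24h (-0.068 over all such genes) but 0.29 at 72h (0.00043). With the times combined it was -0.012 (-0.024), and the change of the difference had a median of 0.72 (0.036). Relb, a subunit of the alternative NF-κB pathway, was called over both times (1.04, SE 0.32, adjusted p = 0.0181), higher in Kaede-red. This call ended without Kaede-green 24h replicate 3 or Kaede-red 24h replicate 2 (0.81 to 0.91, adjusted p from 0.0503 to 0.0686), or with thinned libraries (0.85), and at 24h Relb was called (2.13, adjusted p = 0.0170) when Kaede-green 24h replicate 2 was absent.

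Genes of the T cell side of these pairs were thinly counted in the sorted cells. As 1 count was worth up to 0.557 CPM in a Kaede-green library, low counts there do not show absence. Cd28, Ctla4, Cd40lg, Pdcd1 and Icos were not tested, as 0 of the 5 passed the filter, and had at most 31, 9, 1, 6 and 29 counts in a library.

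Among the PD-1 ligands, Cd274 (chr19:29367455-29388095), which encodes PD-L1, was well measured, with 82 to 2590 counts per library. The Kaede-green libraries had 45.7, 41.3, 39.0 and 55.1 CPM at 24h and 43.7, 39.3, 28.9 and 33.2 CPM at 72h. Kaede-red libraries had 43.4, 44.9, 37.8 and 48.4 CPM at 24h and 53.9, 41.4, 31.1 and 54.4 CPM at 72h. All groups overlapped, and both the lowest and the highest Kaede-red library were at 72h. The red-green difference was -0.05 at 24h (adjusted p = 0.932) and 0.33 at 72h (SE 0.20, 95% interval -0.06 to 0.72, adjusted p = 0.280). Over both times it was 0.14 with a 95% interval from -0.14 to 0.42. The span of an antisense gene, AC119228.1, overlaps that of Cd274. Shared exons were not checked, and the strand setting of the counting is not given in the sources used here. Reads of AC119228.1 may therefore be counted with those of Cd274.

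Pdcd1lg2 (PD-L2) was close to the detection limit. Kaede-green libraries had 0, 0, 6 and 6 counts at 24h and 2, 2, 5 and 4 at 72h, and Kaede-red libraries had 13, 5, 4 and 20 at 24h and 27, 39, 2 and 60 at 72h. It passed the filter through Kaede-red libraries alone. Most of that difference in counts was depth, as the group means were 0.995, 0.940, 0.898 and 0.899 CPM. In the 2 Kaede-green 24h libraries at 0, an upper limit of 3 counts corresponds to 1.67 and 1.23 CPM, above those means, with counting error alone considered. Its red-green difference over both times, -0.04, had a 95% interval from -1.02 to 0.93, so these libraries leave any difference within that range possible. The span of the antisense gene A930007I19Rik overlaps that of Pdcd1lg2, and its reads may likewise be counted with those of Pdcd1lg2.

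The route from interferon γ to PD-L1 was listed as 11 genes, all tested: the receptor chains Ifngr1 and Ifngr2, the kinases and factors Jak1, Jak2, Stat3, Irf1 and Irf9, and the regulators of PD-L1 protein Cmtm6, Cmtm4, Spop and Cops5. All but Cmtm4 would have passed in either colour alone. At 24h, 1 of these 10 was called (10.6% of all such genes), Cmtm6, which protects PD-L1 from degradation. It had 39.0, 30.7, 35.5 and 40.0 CPM in Kaede-green and 21.0, 23.3, 20.5 and 20.5 CPM in Kaede-red libraries at 24h, and 33.5, 32.0, 24.3 and 28.3 against 22.6, 25.7, 27.5 and 24.1 CPM at 72h. All Kaede-red libraries were thus lower at 24h (log2 fold change -0.76, SE 0.18, adjusted p = 0.00752, 1.70-fold lower), while the colours overlapped at 72h. With the rRNA-free library size the 24h value was -0.55 (adjusted p = 0.0534, with 3.74e-06 to 0.132 among all alternatives), and with no low-count filter Cmtm6 was not called at 24h either (-0.67).

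Over both times Jak1 (0.51) and Stat3 (0.48) were called higher in Kaede-red and Cmtm6 (-0.50) lower, 3 of the 10, where 27.9% of all such genes were called. The call of Stat3 ended in 12 of the leave-one-out fits (0.39 to 0.50, adjusted p from 0.0548 to 0.115), those without Kaede-green 24h replicate 1, 3 or 4, Kaede-red 24h replicate 1, 2 or 4, Kaede-green 72h replicate 1, 2 or 3, or Kaede-red 72h replicate 1, 2 or 4. It also ended with DESeq2 (0.46), RLE factors (0.45) and thinned libraries (0.42), and that of Cmtm6 with the rRNA-free library size (-0.31) and no filter (-0.38). At 72h, 2 were called (25.2% of all such genes), both higher in Kaede-red, Jak1 (0.79, SE 0.20, adjusted p = 0.00462) and Stat3 (0.94, SE 0.24, adjusted p = 0.00539). Between the times in Kaede-red cells Jak1 (0.78), Stat3 (1.04) and Irf1 (0.62) were called higher at 72h, against 14.2% of all such genes. The call of Irf1 ended without Kaede-red 24h replicate 1, 3 or 4 or Kaede-red 72h replicate 1, 2 or 4 (adjusted p from 0.0501 to 0.0939), and that of Jak1 without Kaede-red 24h replicate 4 (0.70, adjusted p = 0.0521). The median of the 10 was -0.17 at 24h (-0.068 over all such genes) and 0.089 at 72h (0.00043).

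Havcr2 and Lgals9 encode TIM-3 and its ligand galectin-9, and both were higher in Kaede-red cells at 72h than at 24h. Lgals9 (chr11:78962974-78984946, minus strand) had 44.6, 57.6, 51.8 and 40.8 CPM in Kaede-green and 45.4, 41.8, 31.5 and 30.0 CPM in Kaede-red libraries at 24h. At 72h it had 37.5, 39.3, 35.2 and 42.8 CPM in Kaede-green and 61.1, 61.5, 66.0 and 50.0 CPM in Kaede-red libraries. The colours overlapped at 24h with the Kaede-red mean the lower, and at 72h all Kaede-red libraries lay above all Kaede-green libraries and above all Kaede-red libraries of 24h.

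For Lgals9, Kaede-red against Kaede-green had a log2 fold change of -0.39 at 24h (SE 0.19, adjusted p = 0.233) and 0.62 at 72h (SE 0.19, adjusted p = 0.0196, 1.54-fold higher). Between the times it was 0.68 in Kaede-red cells (SE 0.18, adjusted p = 0.0199) and -0.33 in Kaede-green cells (SE 0.19, adjusted p = 0.657). The red-green difference itself changed by 1.01 (SE 0.27), which edgeR did not call (unadjusted p = 6.37e-04, adjusted p = 0.0615). DESeq2 called that change (0.99, adjusted p = 0.00191, with 0.00191 to 0.143 among all alternatives), as did the fit on genes with at least 10 counts in every library (0.90) and edgeR without Kaede-green 24h replicate 4 or Kaede-red 24h replicate 1 (1.13 at most).

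The calls of Lgals9 were close to the threshold. At 72h the call ended without Kaede-green 72h replicate 1, 2 or 3 or Kaede-red 72h replicate 1 (0.56 to 0.61, adjusted p from 0.0506 to 0.0757), and between the times in Kaede-red cells without Kaede-red 24h replicate 3 or 4 or Kaede-red 72h replicate 1 or 2 (0.59 to 0.67, adjusted p from 0.0509 to 0.0998). Relative to the shift of the median gene with the rRNA-free library size, Lgals9 at 72h was at 0.61.

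Havcr2 (chr11:46454935-46481255, plus strand) encodes the receptor of this pair. Its libraries had 9.47, 10.6, 10.7 and 10.2 CPM in Kaede-green 24h and 11.7, 10.2, 9.41 and 9.67 in Kaede-red 24h. At 72h they had 13.1, 11.9, 12.9 and 10.9 CPM in Kaede-green and 17.9, 15.5, 15.4 and 15.9 in Kaede-red. At 24h the colours overlapped, and the 72h libraries of each colour were above the 24h libraries of the same colour without overlap. The log2 fold change between the times was 0.65 in Kaede-red cells (SE 0.19, adjusted p = 0.0274) and 0.24 in Kaede-green cells (SE 0.22, adjusted p = 0.804), where the libraries had only 17 to 53 counts. At 72h Kaede-red libraries were higher than Kaede-green ones without overlap (0.41, SE 0.20, adjusted p = 0.159).

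The call of Havcr2 between the times in Kaede-red cells ended without Kaede-red 24h replicate 2, 3 or 4 or Kaede-red 72h replicate 1, 2 or 4 (0.60 to 0.68, adjusted p from 0.0540 to 0.113), and with no low-count filter (0.73). With all libraries thinned to the counts of the shallowest it was 0.13 (adjusted p = 0.836, with 0.000801 to 0.836 among all alternatives). Under the rRNA-free library size Havcr2 was called at 72h (0.59, or 0.40 relative to the shift of the median gene) and over both times (0.40), and with at least 10 counts in every library at 72h (0.44). Thinning turned the direction between the colours, to -0.14 at 72h and -0.032 over both times, and that of the change of the difference, from 0.41 to -0.22, none of them called.

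Markers of cell types also differed between the times in Kaede-red cells. Itgam (0.98), Csf1r (1.11) and Ptprc (0.67) were called higher at 72h, 3 of the 10 monocyte and macrophage markers, against 14.2% of all genes that either colour alone would have kept. The neutrophil marker Csf3r (1.00) was also called higher, and the fibroblast gene Col3a1 (-1.12) lower. The part of these cells in the values of Lgals9, Havcr2 and Sirpa over time was not tested.

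Lgals3, which encodes galectin-3, was the most abundant member per length and did not separate the groups. Its libraries ranged from 98.9 to 183 CPM with group means of 153 ± 33.4, 152 ± 20.2, 139 ± 25.4 and 132 ± 24.3 (SD, n = 4, in the order Kaede-green 24h, Kaede-red 24h, Kaede-green 72h, Kaede-red 72h). The red-green difference over both times was -0.04 on the log2 scale (95% interval -0.32 to 0.24). Within a library, the counts of Lgals9 were 0.243 to 0.380 of those of Lgals3 in Kaede-green 24h, 0.205 to 0.270 in Kaede-red 24h, 0.229 to 0.341 in Kaede-green 72h and 0.391 to 0.506 in Kaede-red 72h. This ratio, which needs no scaling between libraries, was highest in the 4 Kaede-red libraries of 72h.

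**Figure D3:**
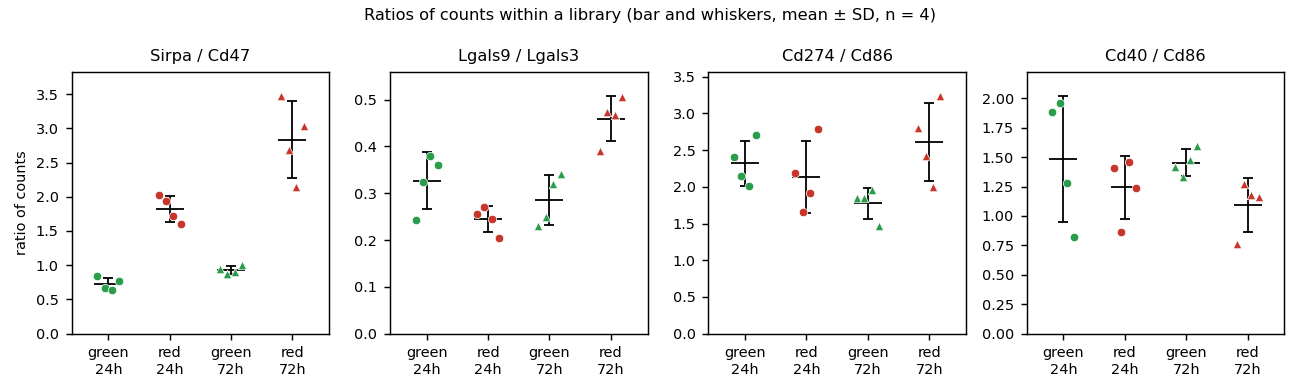
Ratio of the counts of a pair of genes within each library (vertical axis, from 0) in the 4 groups, for Sirpa to Cd47, Lgals9 to Lgals3, Cd274 to Cd86 and Cd40 to Cd86, with bars and whiskers for the mean ± SD of 4 libraries. Sirpa to Cd47 is at least 1.61 in every Kaede-red library and at most 1.00 in every Kaede-green library, and Lgals9 to Lgals3 is at least 0.391 in Kaede-red 72h and at most 0.380 elsewhere.

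Promoter windows are shown for Lgals9 and Havcr2 because both were called together over time in Kaede-red cells, and for Cd274, which was not called, beside them. They are the 250 bases before the gene's start from RefSeq (GRCm38.p6), where 6 of the 10 members had an entry and Cd86, Cd40, Sirpa and Lilrb4a did not. Each is printed 5′ to 3′ on the gene's strand, at chr11:78984925-78985174 (minus strand), chr11:46454681-46454930 (plus strand) and chr19:29367188-29367437 (plus strand), with motif matches in capitals.
Lgals9: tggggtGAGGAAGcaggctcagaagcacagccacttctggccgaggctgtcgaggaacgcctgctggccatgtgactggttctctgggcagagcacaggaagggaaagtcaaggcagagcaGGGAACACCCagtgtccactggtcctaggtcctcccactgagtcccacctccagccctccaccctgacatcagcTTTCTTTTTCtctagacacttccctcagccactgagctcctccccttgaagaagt
Havcr2: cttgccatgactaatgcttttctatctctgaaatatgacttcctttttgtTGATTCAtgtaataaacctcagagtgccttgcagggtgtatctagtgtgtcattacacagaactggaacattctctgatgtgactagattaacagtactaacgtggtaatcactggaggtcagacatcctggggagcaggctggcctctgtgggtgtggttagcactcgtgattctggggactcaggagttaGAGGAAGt
Cd274: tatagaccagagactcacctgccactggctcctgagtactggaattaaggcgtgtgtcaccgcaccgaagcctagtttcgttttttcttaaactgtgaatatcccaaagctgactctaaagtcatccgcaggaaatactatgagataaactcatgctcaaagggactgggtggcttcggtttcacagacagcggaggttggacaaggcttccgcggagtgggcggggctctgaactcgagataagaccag

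4 motifs were searched on both strands of all 32851 promoter windows of that length. The NF-κB-like and AP-1-like patterns allow any base at their open positions, so they are looser than the sites they are named for. The Lgals9 window held the interferon-stimulated response element, 2 times GAAA with 2 bases of any kind between them. It lay on the other strand, 55 bases before the start, and 2.98% of all windows held it. An NF-κB-like pattern, GGGA and CC with 4 bases of any kind between them, lay 129 bases before the start (17.6%). The PU.1 core GAGGAAG was there too (244 bases, 10.6%). In the Havcr2 window there were the AP-1-like pattern TGANTCA (here TGATTCA, 200 bases before the start, 6.75%) and the PU.1 core (8 bases). The Cd274 window held none of the 4. Windows of the other uncalled members with an entry also held matches. These were the NF-κB-like pattern in Cd80, Pdcd1lg2 and, 2 times, Lgals3, and the AP-1-like pattern in Cd80 (also TGATTCA). A match describes letters in this window and is not a measured binding site.

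Partners of TIM-3 and the galectins were listed as 7 genes, of which 6 were tested (Timd4 was not). Ceacam1 and Hmgb1 passed the filter through Kaede-red libraries alone. Of the other 4, 2 were called over both times, Lgals3bp and Bag6, both higher in Kaede-red, against 27.9% of all genes that either colour alone would have kept. At 24h it was 1 (10.6% of such genes), at 72h 2 (25.2%) and between the times in Kaede-red cells 2 (14.2%), with a median log2 fold change at 72h of 0.61 (0.00043 over such genes). Lgals3bp, a secreted binding partner of galectin-3, had 29.0, 43.3, 31.1 and 29.0 CPM in Kaede-green and 86.1, 65.3, 54.9 and 48.9 CPM in Kaede-red libraries at 24h. At 72h it had 35.3, 27.7, 32.3 and 52.6 CPM in Kaede-green and 112, 116, 85.0 and 108 CPM in Kaede-red libraries. The colours were apart at each time, with log2 fold changes of 0.95 at 24h (SE 0.22, adjusted p = 0.00560) and 1.51 at 72h (SE 0.22, adjusted p = 8.37e-06).

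Also higher in Kaede-red cells at 72h was Bag6, a chaperone that binds the TIM-3 tail (1.00, SE 0.24, adjusted p = 0.00284). Between the times, Ceacam1, a ligand of TIM-3, was called in Kaede-red cells (1.76, SE 0.38, adjusted p = 0.00443), as were Lgals3bp (0.72) and Bag6 (0.79). Ceacam1 reached the filter level in 2 of the Kaede-red 24h and 4 of the Kaede-red 72h libraries, with 4 needed, so its call as higher at 72h is not independent of the filter. The calls of Lgals3bp and Bag6 ended without Kaede-red 24h replicate 3 or 4 or Kaede-red 72h replicate 1, and that of Lgals3bp also without Kaede-red 24h replicate 2 or Kaede-red 72h replicate 2 or 4 (0.62 to 0.74 in both genes, adjusted p from 0.0579 to 0.125). Thinned libraries ended them too (0.67 and 0.66).

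Over both times Hmgb1 was called higher in Kaede-red, a call that ended without Kaede-green 24h replicate 1, Kaede-green 72h replicate 1, 3 or 4, or Kaede-red 72h replicate 4 (0.67 to 0.71, adjusted p from 0.0506 to 0.0714). At 24h Hmgb1 was called in 3 alternative fits, among them the one without Kaede-green 72h replicate 2 (1.06, adjusted p = 0.0406). Between the colours at 72h, Ceacam1 was called in 3 alternative fits, among them the one that lacked Kaede-green 72h replicate 4 (1.49, adjusted p = 0.0262).

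Sirpa (chr2:129592835-129632228, plus strand), the inhibitory receptor for CD47, showed the largest difference between the colours among the members. At 24h it had 37.9, 46.6, 26.8 and 24.9 CPM in Kaede-green and 73.1, 81.4, 54.5 and 53.9 CPM in Kaede-red libraries. At 72h it had 38.6, 33.8, 41.8 and 43.6 CPM in Kaede-green and 127, 109, 94.0 and 115 CPM in Kaede-red libraries. All Kaede-red libraries were above all Kaede-green libraries, and within Kaede-red those of 72h were above those of 24h, whereas the Kaede-green times overlapped.

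The log2 fold change of Sirpa for Kaede-red against Kaede-green was 0.96 at 24h (SE 0.21, adjusted p = 0.00319, 1.94-fold) and 1.50 at 72h (SE 0.21, adjusted p = 4.61e-06, 2.82-fold). Over both times it was 1.23 (95% interval 0.94 to 1.52, adjusted p = 2.17e-07), or 1.25 relative to the shift of the median gene with the rRNA-free library size. In Kaede-red cells it was 0.76 higher at 72h than at 24h (SE 0.20, adjusted p = 0.0156), and in Kaede-green cells 0.22 higher (SE 0.22, adjusted p = 0.810). The red-green difference changed between the times by 0.54 (SE 0.29, adjusted p = 0.386), so a larger difference at 72h was not shown.

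Leaving out any 1 library kept the call of Sirpa between the colours, with the times combined and at each time. In Kaede-red cells alone the call between the times ended without Kaede-red 24h replicate 3 or 4 or Kaede-red 72h replicate 1 (0.68 to 0.71, adjusted p from 0.0720 to 0.0801). With the Rn45s share as a covariate its difference was 0.77 over both times (adjusted p = 0.0739, with 1.44e-16 to 0.0739 among all alternatives), 0.56 at 24h and 0.98 at 72h. Sirpa belongs to a family with similar genes such as Sirpb1a. How the counting treated reads that fit more than 1 of them is not given in the sources used here, so such reads may be missing or misplaced.

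Other genes that mark macrophages also differed between the colours over both times. Csf1r (0.95), Adgre1 (1.53), Cd68 (1.14), Mrc1 (1.51), C1qa (2.72) and Itgam (0.44) were called higher in Kaede-red cells and Lyz2 (-1.25) lower. These are 7 of the 10 monocyte and macrophage markers, against 27.9% of all genes that either colour alone would have kept, while Ptprc, Ly6c2 and Ccr2 were not called. Of the markers of other cells, the endothelial Kdr (1.06) and Pecam1 (1.02) and the neutrophil marker Csf3r (0.67) were also called higher, and the fibroblast genes Col1a1 (-1.12), Col1a2 (-1.39) and Col3a1 (-1.13) lower. Among thinly counted markers, Ccr7 and Cd4, which passed the filter through Kaede-red alone, were called higher and Cdh5 lower, and Fscn1 was called lower (-0.54). The part of these cells in the values of Sirpa was not tested.

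The counts of Sirpa relative to those of its ligand gene Cd47 in the same library were 0.640 to 0.840 in Kaede-green 24h and 1.61 to 2.02 in Kaede-red 24h. At 72h the ratio was 0.867 to 1.00 in Kaede-green and 2.14 to 3.48 in Kaede-red libraries. The ratio was thus higher in all Kaede-red than in all Kaede-green libraries. These counts were not scaled for exon length (4911 bp for Sirpa and 6276 bp for Cd47), so a ratio of 1.00 does not mark equal transcript levels. Cd47 itself had a log2 fold change of -0.25 over both times (SE 0.14, adjusted p = 0.225).

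Lilrb4a (chr10:51490956-51496611) was lower in all Kaede-red than in all Kaede-green libraries at each time, by a small amount. At 24h it had 140, 129, 123 and 120 CPM in Kaede-green and 107, 106, 102 and 110 CPM in Kaede-red libraries, and at 72h 103, 105, 120 and 124 against 101, 102, 93.9 and 77.2 CPM. The log2 fold change was -0.26 at 24h (SE 0.17, adjusted p = 0.410) and -0.27 at 72h (SE 0.17, adjusted p = 0.299), and over both times -0.27 (SE 0.12, adjusted p = 0.119). EdgeR did not call it, whereas DESeq2 did over both times (-0.29) and at 72h (-0.31), as did edgeR over both times with thinned libraries (-0.38). The values of Lilrb4a are uncertain, as a near-identical neighbouring gene may share its reads and the models of Gm49339 and the antisense Gm40645 overlap it.

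Partners of SIRPα and other receptors with inhibitory motifs were listed as 12 genes, of which 11 were tested and Lilrb4b was not matched. Siglece passed the filter through Kaede-red libraries alone. Over both times 5 of the other 10 were called, all higher in Kaede-red (Ptpn6, Inpp5d, Pirb, Lair1 and Pilra), against 27.9% of all genes that either colour alone would have kept, at 24h 1 (10.6%), at 72h 3 (25.2%) and between the times in Kaede-red cells 1 (14.2%), with a median over both times of 0.42 (-0.024 over such genes). Ptpn6 encodes SHP-1, the phosphatase recruited by SIRPα and LILRB receptors. It had 43.5, 52.3, 31.4 and 42.0 CPM in Kaede-green and 58.0, 57.6, 44.0 and 37.4 CPM in Kaede-red libraries at 24h, and 51.7, 48.7, 29.9 and 39.7 against 73.9, 77.4, 59.8 and 71.6 CPM at 72h. Its colours overlapped at 24h and not at 72h, where the log2 fold change was 0.74 (SE 0.21, adjusted p = 0.0106). That call ended without Kaede-green 72h replicate 3 (0.58, adjusted p = 0.0737).

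Lair1, a collagen receptor gene, was the 1 gene of this list called at 24h (1.29, SE 0.20, adjusted p = 8.97e-05). Its Kaede-green libraries had 16.2, 19.2, 15.3 and 16.7 CPM at 24h and its Kaede-red libraries 42.7, 45.3, 41.8 and 34.4 CPM. At 72h the libraries of Lair1 were closer, with 18.6, 28.6, 22.8 and 23.3 CPM in Kaede-green and 29.7, 33.0, 21.7 and 30.7 CPM in Kaede-red, and overlapped. Between the times in Kaede-red cells Lair1 had -0.50 (adjusted p = 0.0845), called lower by DESeq2 (-0.54), with the rRNA-free library size (-0.55), at least 10 counts (-0.56), thinning (-0.70) and in the fit of these groups alone. The change of its red-green difference, -0.98 (adjusted p = 0.0734), was called by DESeq2 and with at least 10 counts (-1.09). Inpp5d, the lipid phosphatase SHIP-1, was called at 72h (1.11, SE 0.25, adjusted p = 0.00151) and between the times in Kaede-red cells (1.16, SE 0.24, adjusted p = 0.00280). Pirb, the mouse relative of the LILRB receptors, was called at 72h (0.81, SE 0.23, adjusted p = 0.0123), but not without Kaede-green 72h replicate 3 (0.68, adjusted p = 0.0687).

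Over both times the call of Ptpn6 ended without Kaede-green 24h replicate 3 or Kaede-green 72h replicate 3 (0.40, adjusted p from 0.0589 to 0.0621), and that of Pilra without Kaede-red 24h replicate 1 or Kaede-red 72h replicate 2 (0.55 to 0.56, adjusted p from 0.0508 to 0.0532). For Inpp5d it ended without Kaede-green 24h replicate 1, 3 or 4, Kaede-red 24h replicate 1 or 2, Kaede-green 72h replicate 2 or 4, or Kaede-red 72h replicate 1 or 4 (0.40 to 0.52, adjusted p from 0.0509 to 0.105). Inpp5d was not called by DESeq2 (0.49) or with thinning (0.45) over both times, nor Pilra with thinning (0.51). The change of the red-green difference of Inpp5d (1.18, adjusted p = 0.0880) was called without Kaede-red 24h replicate 1 (1.39, adjusted p = 0.0424), by DESeq2 (1.15) and with no filter (1.24).

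Siglece had at most 6 counts in a Kaede-green library and 3 to 148 in Kaede-red libraries, so 0 Kaede-green libraries reached the level of the filter. It was called over both times (adjusted p = 0.0117), and its call at 72h (adjusted p = 0.0180) ended without Kaede-green 72h replicate 1, 2 or 4 or Kaede-red 72h replicate 1 or 2 (adjusted p from 0.0502 to 0.0736), and with thinned libraries.

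Further ligands of the B7 and immunoglobulin families were listed as 10 genes, all with counts deposited, Vsir and Nectin2 under older symbols, and 7 were tested (Vtcn1, Vsig4 and Btla were not). Icosl, Cd276 and Nectin2 passed the filter through Kaede-red libraries alone. Of the other 4, only Vsir was called, higher in Kaede-red over both times (27.9% of all genes that either colour alone would have kept), at 72h (25.2%) and between the times in Kaede-red cells (14.2%), and 0 at 24h (10.6%). Vsir, which encodes the checkpoint ligand VISTA, had 42.3, 40.5, 24.0 and 20.4 CPM in Kaede-green and 41.2, 33.4, 28.1 and 23.3 CPM in Kaede-red libraries at 24h. At 72h it had 19.7, 25.9, 22.8 and 32.9 CPM in Kaede-green and 56.6, 59.9, 48.8 and 54.7 CPM in Kaede-red libraries. The colours overlapped fully at 24h, and at 72h the Kaede-red libraries were above those of every other group.

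For Vsir, Kaede-red against Kaede-green had a log2 fold change of 0.00 at 24h (SE 0.23, adjusted p = 0.996) and 1.12 at 72h (SE 0.23, adjusted p = 0.000636). Between the times in Kaede-red cells it was 0.81 (SE 0.22, adjusted p = 0.0187), a call that ended without Kaede-red 24h replicate 3 or 4 or Kaede-red 72h replicate 1 or 2 (0.68 to 0.79, adjusted p from 0.0541 to 0.0998). The change of the red-green difference was 1.11 (SE 0.32, adjusted p = 0.0766), called without Kaede-green 24h replicate 4 or Kaede-red 24h replicate 1 (1.26 to 1.28, adjusted p from 0.0408 to 0.0424), by DESeq2 (1.08) and with no filter (1.17). The span of an antisense neighbour, Cdh23, overlaps that of Vsir. Without a strand setting its reads may be counted with those of Vsir where exons are shared, which was not checked. The same limit holds for other called partners that a gene on the opposite strand overlaps, among them Stat3, Jak1, Irf1, Ptpn6, Pilra and Cd276.

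Of the genes that passed through Kaede-red alone, Cd276, which encodes B7-H3, was called over both times (1.31, SE 0.28, adjusted p = 0.000785) and at 72h (1.67, SE 0.37, adjusted p = 0.00179). Its Kaede-green libraries at 72h had 4 to 11 counts, or 1.46 to 2.67 CPM, and its Kaede-red libraries 6.59 to 7.65 CPM. At 24h Cd276 was called without Kaede-green 24h replicate 4 (1.53, adjusted p = 0.0338). Icosl, the ligand of ICOS, was called at 72h (1.11, SE 0.35, adjusted p = 0.0239), where its libraries had 2.19, 3.05, 3.16 and 2.85 CPM in Kaede-green and 6.95, 5.81, 6.04 and 5.69 CPM in Kaede-red. That call ended without Kaede-green 72h replicate 1 or 2 or Kaede-red 72h replicate 1 (1.01 to 1.11, adjusted p from 0.0545 to 0.0747), and with all libraries thinned (0.68). Over both times Icosl was called (0.88, SE 0.26, adjusted p = 0.0153), but not without Kaede-green 24h replicate 3 (0.71, adjusted p = 0.0570) or with thinned libraries (0.64).

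Co-stimulatory ligands of the TNF family were listed as 7 genes and 4 were tested, since Tnfsf4, Tnfsf18 and Cd70 had at most 8 counts in a library and Cd70 was at 0 in all 16. The 4 tested, Tnfsf8, Tnfsf9, Tnfsf14 and Tnfsf15, all passed the filter through Kaede-red libraries alone, so no share is given. Tnfsf8, the CD30 ligand, had 1, 0, 0 and 3 counts in Kaede-green 24h, 25, 21, 9 and 30 in Kaede-red 24h, 2, 0, 0 and 0 in Kaede-green 72h, and 76, 111, 10 and 50 in Kaede-red 72h. Kaede-red libraries had 1.05 to 2.97 CPM, and Kaede-green libraries at most 1.22 CPM. Over both times Tnfsf8 and Tnfsf15 were called higher (adjusted p = 0.000443 and 0.0357), and at 72h Tnfsf8 (adjusted p = 0.00375), while edgeR called neither at 24h. 0 Kaede-green libraries reached the level of the filter in either gene, and these calls rest on genes that could enter only by being detected in Kaede-red. The call of Tnfsf15 ended without Kaede-green 24h replicate 2, 3 or 4, Kaede-red 24h replicate 1 or 2, Kaede-green 72h replicate 1, 3 or 4, or Kaede-red 72h replicate 1, 2 or 4 (adjusted p from 0.0549 to 0.103). In leave-one-out fits at 24h, Tnfsf8 was called (adjusted p = 0.0228) when Kaede-green 24h replicate 4 was absent and Tnfsf15 (adjusted p = 0.0464) when replicate 1 of that group was.

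Of the partner genes in all these lists, 41 calls were made over the 6 comparisons, none of them between the times in Kaede-green cells or for the change of the difference, and 12 of the 41 are of genes that passed the filter through Kaede-red alone. Of these, 40 were kept with RLE factors, 39 by DESeq2, 39 with no filter, 36 with the rRNA-free library size, 30 with thinning and 28 with at least 10 counts (28 could be tested). With the Rn45s share as a covariate 2 of these 41 calls were kept, those of Lair1 at 24h and of Inpp5d between the times in Kaede-red cells, and 39 had the same direction.

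**Figure D4:**
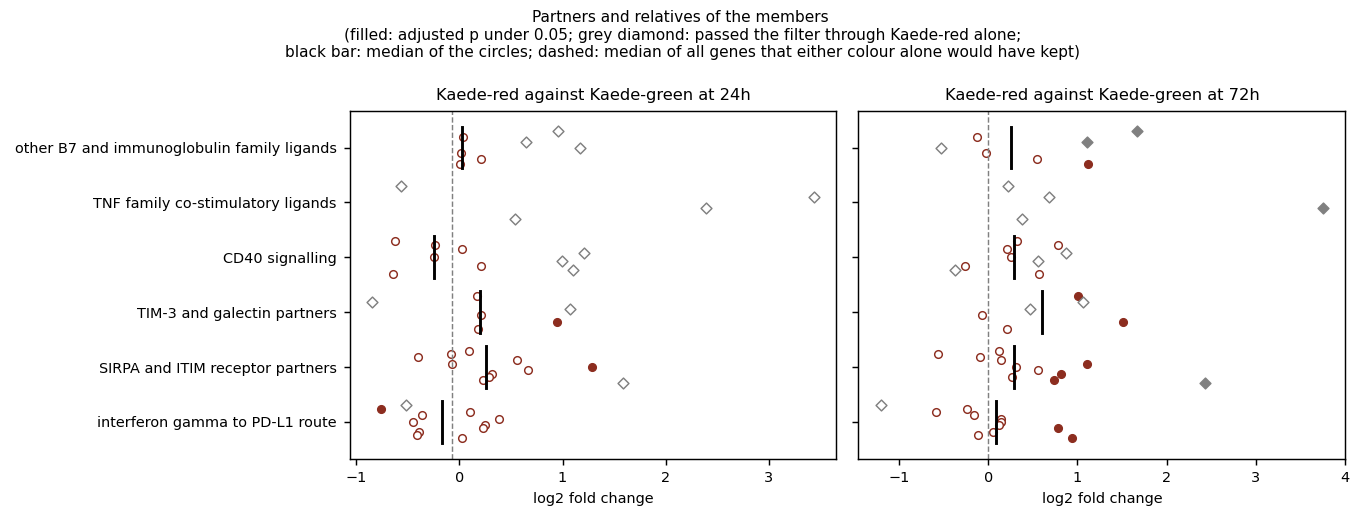
Log2 fold change (horizontal axis) of Kaede-red against Kaede-green at 24h (left) and 72h (right) for the tested genes of 6 lists of partners and relatives, with 1 symbol per gene, filled for an adjusted p under 0.05 in edgeR, circles for genes that either colour alone would have kept, grey diamonds for genes that passed the filter through Kaede-red alone, a black bar for the median of the circles and a dashed line for the median of all genes of that kind. For the partners of TIM-3 and the galectins the median is 0.20 at 24h and 0.61 at 72h, and for the route from interferon γ to PD-L1 it is -0.17 and 0.089.

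Levels of the members were compared with each other per kb of exon (CPM per kb, GENCODE M21). In Kaede-green 24h the order was Lgals3 (82.1), Lilrb4a (24.5), Lgals9 (22.8), Cd274 (12.5), Cd40 (8.42), Sirpa (6.93), Cd86 (5.32), Havcr2 (3.77), Cd80 (1.28) and Pdcd1lg2 (0.507). The neighbours Lilrb4a and Lgals9, Cd274 and Cd40, Cd40 and Sirpa, Sirpa and Cd86, and Cd80 and Pdcd1lg2 overlapped in their libraries, so their order is not beyond the spread. In Kaede-green 72h the order of the means was the same, from 74.9 for Lgals3 to 0.458 for Pdcd1lg2, and there Cd86 (5.63) and Havcr2 (4.48) overlapped too while Sirpa (8.03) and Cd86 did not.

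Sirpa stood higher in this order in Kaede-red cells. Its level of 13.4 CPM per kb had rank 4 in Kaede-red 24h, between Lgals9 (17.4) and Cd274 (12.0), and overlapped both. In Kaede-red 72h it had rank 3 at 22.7, between Lgals9 (27.9) and Lilrb4a (17.9), again with overlap, and above Cd274 (12.5). Lgals3 was the highest in both (81.7 and 70.8) and overlapped no other member. At the lower end of Kaede-red 72h stood Havcr2 (5.94), Cd40 (5.45) and Cd86 (4.69), which overlapped from neighbour to neighbour, then Cd80 (0.615) and Pdcd1lg2 (0.459), which overlapped each other.

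**Figure D5:**
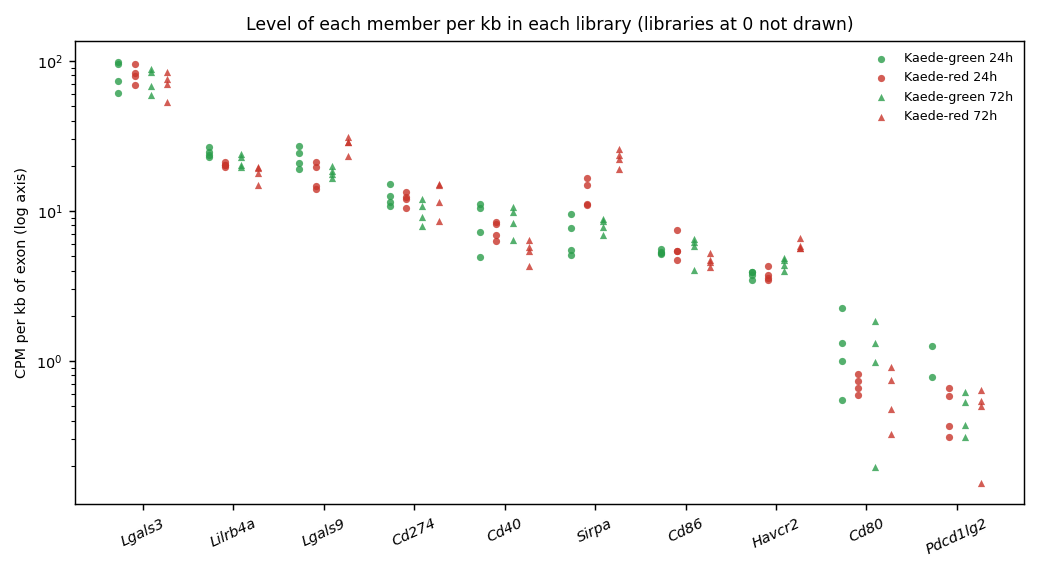
Level of each member per kb of exon (vertical log axis, CPM per kb) in each library of the 4 groups, with members ordered by their mean in Kaede-green 24h and libraries at 0 not drawn. Lgals3 is the highest in every group (means 70.8 to 82.1), and Sirpa goes from a mean of 6.93 in Kaede-green 24h to 22.7 in Kaede-red 72h.

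For the balance of inhibitory to stimulatory transcripts within a library, the counts of Cd274 were 2.01 to 2.70 times those of Cd86 in Kaede-green 24h, 1.65 to 2.79 in Kaede-red 24h, 1.47 to 1.95 in Kaede-green 72h and 2.00 to 3.24 in Kaede-red 72h. At 72h the ratio was thus higher in all Kaede-red than in all Kaede-green libraries, and at 24h the colours overlapped. Relative to Cd40, the counts of Cd274 at 72h were 0.921 to 1.39 in Kaede-green and 1.70 to 3.68 in Kaede-red libraries, without overlap, and at 24h up to 3.29 in Kaede-green and 1.31 to 2.26 in Kaede-red, with all Kaede-red libraries inside the Kaede-green range. Relative to Cd80 the colours overlapped at each time, with at least 5.47 in Kaede-green and 13.9 to 19.8 in Kaede-red at 24h and at least 4.25 and 12.3 to 30.7 at 72h, again inside the Kaede-green range. These ratios are given as a description and were not tested, and no share over other pairs of genes was taken. At 72h 22.5% of all single genes were without overlap between the colours, Cd40 among them. EdgeR called neither Cd274 (adjusted p = 0.280) nor Cd86 (adjusted p = 0.428) between the colours at 72h.

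The genes whose log2 CPM was most like that of Cd274 over the 16 libraries, by Pearson correlation, were Nos2 (r = 0.84), Coa5 (0.77), Ddx41 (0.75), Srfbp1 (0.74) and Zfp622 (0.74). For Cd80 they were Tmem147 (0.87), Il27 (0.85), Rab9 (0.85), Chic1 (0.85) and Erc1 (0.83), and for Cd86 Fam114a1 (0.80), Marveld1 (0.77), Ebag9 (0.74), Jmjd6 (0.72) and Rprd1a (0.71). The libraries share the colours, times and depths described above, and low counts of Cd80 limit its values. These genes were picked as the highest correlations among all tested genes over 16 libraries, and such picking alone gives high values. Whether they vary together with these members beyond that was not tested.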

How the data were processed

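The deposited values are counts per gene, which the authors made with Trim Galore, FastQC, HISAT2 (mm10) and featureCounts, without stated versions. Genes were tested in R 4.3.3 with edgeR 4.0.16 (TMM factors, filterByExpr by group, quasi-likelihood test, 1 mean per group, Benjamini-Hochberg adjustment over 9642 genes, called under 0.05) and plotted with matplotlib 3.10.9. Log2 CPM used a prior count of 2, intervals are 1.96 SE, and the depth of the colours was compared by an exact permutation test. The named genes are the members, called genes of the lists of partners and markers, and the 5 genes most correlated with Cd274, Cd80 and Cd86. Members and lists were chosen with earlier results of these data known. Some genes of these lists are not reported here. Older symbols were matched through RefSeq synonyms. Alternatives were DESeq2 1.42.0, RLE factors, the library size without Rn45s, Lars2 and Mir6236, no filter, at least 10 counts in every library, the Rn45s share as a covariate, thinning, a replicate block, fits of the compared groups alone and leaving out each library. Floors and intervals cover counting error and spread between libraries, not PCR duplicates.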

Additional observations from a re-analysis of the deposited data

How the results depend on the processing

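All 8 calls of members were kept by DESeq2, by RLE factors and with at least 10 counts in every library (8 members tested), 7 with the rRNA-free library size or thinning, 6 with no filter, and 0 with the Rn45s share as a covariate. With it Lgals9 and Havcr2 over time in Kaede-red were 0.58 and 0.62 (0.68 and 0.65 without) and Cd40 at 72h -1.01 (-0.69). Lgals9 at 72h was 0.37 (0.62) and Sirpa 0.77 over both times (1.23), 0.56 at 24h (0.96), 0.98 at 72h (1.50) and 0.55 over time in Kaede-red (0.76). The SE of each was larger. Fits of the compared groups alone kept 7 of the 7 calls they could give. The cause was not tested. Pdcd1lg2 could not be tested with the rRNA-free library size or thinning, or in fits of 24h or 72h alone. Depth limits the values of Pdcd1lg2 and Cd80, the members with the lowest levels per kb in each group. The value of Havcr2 over time in Kaede-red went to 0.13 with thinning (0.65 without).

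Over both times, 1 member was called, against 3 with DESeq2, 2 with RLE factors, 2 with the rRNA-free library size, 3 with thinning and 0 with the covariate (leave-one-out 1 to 3). At 24h 1 was called and 0 with the covariate (1 to 1), at 72h 3, 4 with DESeq2, 4 with at least 10 counts, 2 with no filter and 0 with the covariate (1 to 3), and over time in Kaede-red 3, 2 with no filter and 0 (0 to 3). In Kaede-green 0 were called in each fit (0 to 0). For the change of the difference, 1 member, Lgals9, was called with DESeq2 and with at least 10 counts (0 to 1).

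The number of all genes called was 1950 over both times (156 with the covariate, 1296 thinned, leave-one-out 1583 to 2087), 724 at 24h (206 with the covariate, 502 to 769) and 1623 at 72h (102 with the covariate, 1022 thinned, 1148 to 1910). Over time it was 0 in Kaede-green (13 with DESeq2, 37 with no filter, 0 to 2) and 836 in Kaede-red (110 with the covariate, 430 thinned, 1604 in a fit of these groups alone, 287 to 1109). For the change of the difference it was 74 (343 with DESeq2, 216 with no filter, 161 with at least 10 counts, 34 with the covariate, 22 thinned, 2 to 155). The Rn45s share differed by -17.5 points (-19.1 to -15.7).

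With the replicate number as a block, which assumes a pairing that is not stated, 1 member was called for the change of the difference, Lgals9, with Vsir (1.11) and Inpp5d (1.28) and 164 of all genes, and Tnfsf15 over both times was not called. With the covariate, Pirb (-0.031) and Stat3 (-0.089) over both times changed sign. The cause of these changes was not tested.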
